A study of Homo sapiens with 40 samples.

Results

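The 52 genes described here encode the proteins that load the replicative helicase onto origins of DNA replication, start it and copy DNA at the fork. They were listed by name (the MCM2-7 helicase, the origin recognition complex, the helicase loaders and activators, the replicative polymerases, the sliding clamp and its loaders, RPA, the Okazaki fragment enzymes, chromatin assembly factors and fork protection proteins) and matched to Ensembl gene identifiers, 52 of 63152 Ensembl genes in the count tables. The rule used no measured value, though the list was chosen with earlier results of these data known. Of these 52 members, 50 passed the filter on low counts and were tested, among 12557 genes tested in all. The other two were RNASEH2A, a subunit of the nuclease that removes RNA primers, with 0 reads in every library, and FEN1, the flap endonuclease of lagging-strand synthesis, with 0 to 3 reads per library. How reads over overlapping genes were counted is not given in the sources used here, and 30.8% of the exonic length of RNASEH2A and 8.7% of that of FEN1 lie over other annotated genes, so these counts are not read as absence of the transcripts.

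All libraries came from U2OS cells, a human osteosarcoma line, with a stable doxycycline-inducible (Tet-On) MYC gene and a pGIPZ lentiviral hairpin vector. After infection the cells were selected with puromycin at 0.2 µg/ml for 24 hours and then treated. The hairpin was a non-targeting control (shNTC), 1 of 2 hairpins against CTR9 (numbers 3 and 5) or 1 of 2 against CDC73 (numbers 3 and 4). Both target genes encode parts of PAF1C, an elongation factor complex that accompanies RNA polymerase II. Cells received doxycycline (Dox) at 1 µg/ml or its ethanol solvent (EtOH) for 24 hours, which gives 10 groups of 4 RNA-seq libraries. The comparisons ask what loss of either subunit does to transcript levels, with and without high MYC. They also ask what Dox, which induces MYC, does in each hairpin background. Every group carries the MYC transgene and the pGIPZ vector, so a response to MYC and one to Dox itself cannot be told apart. Infection and selection are described for the knockdown hairpins, and the control titles name the same vector. The number of cell clones or separate cultures behind a group was not stated, so p-values measure the spread between these libraries, which may be technical.

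DNA is licensed for replication in G1, when the origin recognition complex (ORC), CDC6 and CDT1 load the ring of MCM2 to MCM7 onto DNA as an inactive double hexamer. In S phase, CDC45 and the GINS complex join MCM2-7 to form the active helicase, polymerase alpha-primase lays down primers, polymerases epsilon and delta extend them, PCNA holds the polymerases on DNA and RPA coats single strands. Many of these genes are activated at the start of S phase by E2F factors, and MYC is known to bind E-box sequences in promoters.

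The promoters of 5 members on which the results turn are shown to make that sequence context visible, 3 from genes that fell in both knockdowns and 2 from genes that rose. Each runs from 250 bases before to 50 bases after an annotated transcription start (RefSeq, GRCh38.p14), 5′ to 3′ on the gene's own strand. Capitals mark any of the E2F words TTTCCCGC, TTTGGCGC, TTTCGCGC and TTTGCCGC, or the E-box CACGTG, on either strand, and longer runs of capitals are words that overlap. MCM6 and MCM2 encode helicase subunits, GINS1 a helicase activator, PCNA the sliding clamp and ORC6 an origin recognition subunit. The windows are chr2:135876394-135876693 (minus strand) for MCM6, chr3:127598161-127598460 (plus) for MCM2, chr20:25407423-25407722 (plus) for GINS1, chr20:5126573-5126872 (minus) for PCNA and chr16:46689409-46689708 (plus) for ORC6.
MCM6: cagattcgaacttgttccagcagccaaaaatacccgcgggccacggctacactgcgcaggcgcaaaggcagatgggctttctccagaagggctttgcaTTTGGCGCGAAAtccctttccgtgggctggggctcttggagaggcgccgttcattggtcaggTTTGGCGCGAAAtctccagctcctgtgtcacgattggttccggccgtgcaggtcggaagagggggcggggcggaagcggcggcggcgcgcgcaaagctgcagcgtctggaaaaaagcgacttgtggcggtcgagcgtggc
MCM2: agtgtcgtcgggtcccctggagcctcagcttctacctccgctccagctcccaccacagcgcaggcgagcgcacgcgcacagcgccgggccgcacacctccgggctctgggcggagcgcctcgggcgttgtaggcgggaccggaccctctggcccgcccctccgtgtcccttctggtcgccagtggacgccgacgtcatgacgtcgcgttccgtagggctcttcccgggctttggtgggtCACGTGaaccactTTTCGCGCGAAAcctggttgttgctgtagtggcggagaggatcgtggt
GINS1: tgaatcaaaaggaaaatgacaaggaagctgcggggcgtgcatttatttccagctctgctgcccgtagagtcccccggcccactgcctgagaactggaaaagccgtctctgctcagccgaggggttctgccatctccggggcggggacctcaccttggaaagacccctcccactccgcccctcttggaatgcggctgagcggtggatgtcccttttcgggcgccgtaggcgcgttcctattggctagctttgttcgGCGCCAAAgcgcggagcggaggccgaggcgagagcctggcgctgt
PCNA: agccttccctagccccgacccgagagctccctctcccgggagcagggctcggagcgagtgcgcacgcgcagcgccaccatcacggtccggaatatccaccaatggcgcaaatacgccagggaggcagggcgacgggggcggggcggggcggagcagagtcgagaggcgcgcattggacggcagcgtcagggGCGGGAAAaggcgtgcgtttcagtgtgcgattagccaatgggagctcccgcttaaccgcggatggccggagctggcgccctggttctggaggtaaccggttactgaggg
ORC6: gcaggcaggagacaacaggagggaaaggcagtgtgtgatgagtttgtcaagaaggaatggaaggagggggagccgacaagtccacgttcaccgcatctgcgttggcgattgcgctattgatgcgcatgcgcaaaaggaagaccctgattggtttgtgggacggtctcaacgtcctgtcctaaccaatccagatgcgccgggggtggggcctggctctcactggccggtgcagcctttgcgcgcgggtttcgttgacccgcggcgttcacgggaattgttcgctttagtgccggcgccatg
The MCM6 window held 4 E2F words in 2 overlapping pairs, MCM2 held an overlapping pair and an E-box, GINS1 and PCNA each held 1 E2F word, and the letters searched were not in the ORC6 window. PCNA has a second annotated start, whose window (chr20:5119909-5120208) held none of these words and is not shown. PRIM1 and ORC5 also fell in both knockdowns, and their windows, not shown, held none of these words either. In the shares of genes below, a gene with several starts counts if any of its windows holds the word. A promoter entry was found for 44 of the 52 members. Of the 42 tested members with an entry, 20 (47.6%) held an E2F word, against 610 of 8946 tested genes (6.82%). Counted by single promoters, it was in 20 of 56 of the members (35.7%) and 1164 of all 35116 (3.31%). The E-box was found for 8 of the 42 (19.0%), against 1158 of 8946 tested genes (12.9%). By single promoters it was in 9 of 56 of the members (16.1%) and 2548 of all 35116 (7.26%). E2F words were found both in members that fell and in members that rose. In shCTR9 cells in EtOH they were in 11 of 22 that fell and 3 of 5 that rose, and in shCDC73 cells in 11 of 24 and 3 of 5. A match is a string of letters and not a measured binding site.

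The libraries held 877323 to 1532617 reads counted in genes (median 1213230.5). CTR9 stood at 17.0 to 27.1 CPM in all 16 shCTR9 libraries against 67.5 to 98.0 in the 8 shNTC libraries. CDC73 stood at 3.27 to 13.9 CPM in the 16 shCDC73 libraries against 26.2 to 41.9 in shNTC, and MYC at 14360 to 15856 CPM in Dox shNTC against 441 to 568 in EtOH. In each case no library overlapped its controls. CTR9 itself was higher in shCDC73 than in shNTC cells (log2 fold change 1.18 in EtOH and 0.92 in Dox). Dox raised MYC less in the knockdowns, with log2 fold changes of 4.88 in shNTC, 4.09 in shCTR9 and 4.00 in shCDC73 cells. Against shNTC, MYC was higher in EtOH (0.26 in shCTR9 and 0.22 in shCDC73 cells) and lower in Dox (-0.52 and -0.66). Of the U2OS markers, VIM (745 CPM), SPARC and FN1 were present, while the osteoblast genes BGLAP (0), COL1A2 and IBSP were at or near 0. None of 6 blood genes passed the filter, and of 7 epithelial genes 4 did, led by KRT18 (209 CPM) and KRT8, with CDH1 at 1.44 CPM. In 3 libraries (replicates 1 and 3 of EtOH shCDC73 hairpin 4 and replicate 1 of EtOH shCTR9 hairpin 3) short transcripts took a larger share of reads than in the other 37, and results that rest on them are also given without them. In those 3 the slope of a gene's log2 deviation from the median of its treatment and knockdown on log2 exonic length was -0.143, -0.183 and -0.166, against -0.0715 to 0.0446 in the other 37. Values below are CPM (reads per 1000000 reads of the TMM-scaled library), a log2 fold change is followed by ± its standard error (SE), and rose and fell are used of genes for which edgeR's quasi-likelihood test gave a Benjamini-Hochberg adjusted p under 0.05 over all 12557 genes.

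Per kilobase of exon, the clamp PCNA had the highest mean level of the members, 183 CPM per kb, at the 98.2nd percentile of all genes tested. Among the helicase genes the highest were MCM3 at 96.9, MCM4 at 85.4, MCM7 at 84.1 and MCM2 at 44.5 CPM per kb. The lowest tested member was GINS4, a GINS subunit, at 1.87 CPM per kb.

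More members fell than rose after loss of either PAF1 complex subunit. In EtOH, 27 of the 50 tested members fell and 5 rose in shCTR9 cells (54.0% and 10%), where 22.4% of all genes tested fell and 23.2% rose. In shCDC73 cells in EtOH 29 fell and 6 rose (58.0% and 12.0%), where 24.6% of all genes fell and 24.4% rose. The share of members that fell was thus over the background in both, and the share that rose was under it. The median log2 fold change of the members was -0.32 in shCTR9 and -0.38 in shCDC73 cells, against 0.02 and 0.01 over all genes tested. In Dox the counts were 24 fallen and 7 risen in shCTR9 cells (48.0% and 14.0%; 20.6% and 21.1% of all genes) and 27 fallen and 7 risen in shCDC73 cells (54.0% and 14.0%; 22.7% and 22.2% of all genes). These are bulk RNA measurements, in which fewer cells in a given phase and less RNA per cell cannot be told apart. Both knockdowns were set against the same shNTC libraries, so their values are given side by side and are not independent of each other. Of 7 epithelial markers 4 were tested, and KRT18 rose in all 4 knockdown comparisons (by 0.41 to 0.68) and KRT8 in all but EtOH shCTR9, while CLDN4 and EPCAM were not called. The summed level of the list, none of whose genes was at 0 in all libraries, was 231 to 256 CPM in EtOH shNTC, 285 to 497 in shCTR9 and 286 to 512 in shCDC73 libraries, and in Dox 198 to 242, 256 to 295 and 261 to 374 CPM. Of 12 osteoblast and mesenchymal markers, of which 1, BGLAP, was at 0 in all libraries, 8 were tested. In EtOH 4 fell and 1 rose in shCTR9 cells and 3 fell and 1 rose in shCDC73 cells, and in Dox 2 fell and 1 rose and 2 fell and 3 rose. SPARC and CDH2 fell and RUNX2 rose in each of the 4. Their summed level was 1811 to 2090 CPM in EtOH shNTC, 1350 to 1727 in shCTR9 and 1154 to 2139 in shCDC73 libraries, and in Dox 1179 to 1218, 961 to 1235 and 890 to 1327 CPM. The part of either list in the falls of the members was not tested.

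The summed level of the 50 tested members gives the size of the shift. It was 6096 to 6161 CPM in the 4 EtOH shNTC libraries and 5823 to 5994 CPM in the 4 Dox shNTC libraries. It was 4715 to 5329 CPM in the 8 EtOH shCTR9 libraries and 4714 to 5045 CPM in the 8 Dox shCTR9 libraries. In EtOH shCDC73 cells it was 4561 to 4708 CPM with hairpin 3 and 5278 to 5976 CPM with hairpin 4, and in Dox 4747 to 4990 and 5322 to 5415 CPM. No knockdown library reached the shNTC libraries of its own treatment. The highest EtOH libraries of each knockdown were the 3 rich in short transcripts, with 5800 and 5976 CPM for shCDC73 hairpin 4 and 5329 CPM for shCTR9 hairpin 3. Without those 3, 29 members fell and 4 rose in EtOH shCTR9 cells (24.5% and 23.8% of all genes), and 34 fell and 3 rose in EtOH shCDC73 cells (26.0% and 24.1%).

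**Figure D1:**
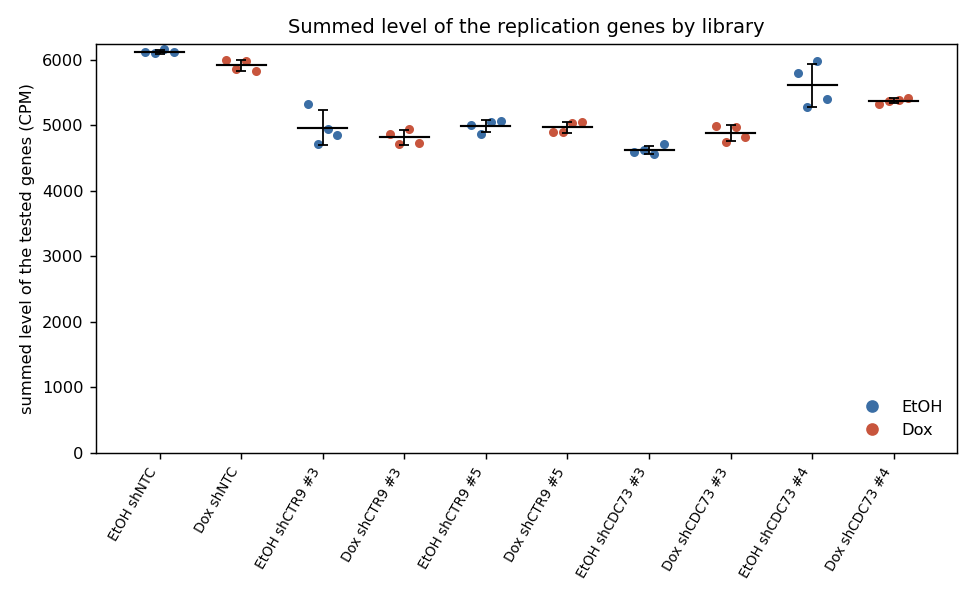
Summed level of the 50 tested members (CPM, y axis) in each library, by hairpin and treatment (EtOH blue, Dox red), with points for libraries and black bars for the mean ± SD (n = 4). The shNTC libraries lie between 5823 and 6161 CPM, and the lowest knockdown library lies at 4561 CPM.

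Of the 6 genes of the MCM2-7 ring 5 fell in both knockdowns in EtOH, and MCM4 did not. MCM6 had 192, 175, 187 and 198 CPM in the 4 EtOH shNTC libraries, 51.9 to 109 CPM (median 68.7) in the 8 EtOH shCTR9 libraries and 56.6 to 115 CPM (median 85.4) in the 8 EtOH shCDC73 libraries. All 16 knockdown libraries lay below all 4 controls. Its log2 fold changes were -1.34 ± 0.10 with shCTR9 and -1.19 ± 0.10 with shCDC73 (adjusted p = 3.18e-16 and 8.96e-15). In Dox the 4 shNTC libraries had 185, 170, 203 and 196 CPM, against 60.1 to 89.3 (median 74.4) in shCTR9 and 70.9 to 136 (median 96.8) in shCDC73 libraries, again with no overlap (-1.33 ± 0.10 and -0.96 ± 0.10). MCM2 had 287, 319, 304 and 325 CPM in EtOH shNTC, 136 to 178 (median 163) in shCTR9 and 146 to 283 (median 203) in shCDC73 libraries. The top shCDC73 library came within a few CPM of the lowest control, and the fall was larger with shCTR9 (-0.97 ± 0.08, adjusted p = 4.13e-14) than with shCDC73 (-0.61 ± 0.08, adjusted p = 1.14e-08).

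MCM3 showed the other order. It had 490, 460, 517 and 445 CPM in EtOH shNTC, 297 to 354 (median 331) in shCTR9 and 228 to 314 (median 270) in shCDC73 libraries. Neither knockdown overlapped the controls, and the log2 fold changes were -0.54 ± 0.06 for shCTR9 and -0.83 ± 0.06 for shCDC73 (adjusted p = 7.87e-10 and 1.69e-15). MCM5 had 151, 143, 164 and 137 CPM in EtOH shNTC, 72.2 to 99.1 (median 84.6) in shCTR9 and 71.9 to 143 (median 107) in shCDC73 libraries. The shCTR9 libraries lay below all controls (-0.81 ± 0.10), whereas the highest shCDC73 library reached into the control range (-0.52 ± 0.10). MCM7 had 407, 444, 448 and 432 CPM in EtOH shNTC, 275 to 350 (median 296) in shCTR9 and 254 to 453 (median 356) in shCDC73 libraries, with overlap for shCDC73 but not for shCTR9 (-0.50 ± 0.07 and -0.33 ± 0.07). With hairpin 4 alone, MCM5 and MCM7 were not called in EtOH shCDC73 cells (log2 fold change -0.19, adjusted p = 0.191, and -0.07, adjusted p = 0.508).

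In Dox the same 5 ring genes fell. MCM2 changed by -0.96 ± 0.08 in shCTR9 and -0.62 ± 0.08 in shCDC73 cells, and MCM3 by -0.60 ± 0.06 and -0.76 ± 0.06. MCM5 changed by -0.78 ± 0.11 and -0.31 ± 0.10, and the second of these calls ended without replicate 2 of Dox shNTC (adjusted p = 0.102). MCM7 changed by -0.47 ± 0.07 and -0.28 ± 0.07. All of these passed the test in the fit of all libraries.

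MCM4 had 562, 600, 547 and 537 CPM in EtOH shNTC, 510 to 574 (median 537) in shCTR9 and 571 to 688 (median 622) in shCDC73 libraries. The shCTR9 libraries overlapped the controls, with log2 fold changes of -0.06 ± 0.06 in EtOH and 0.06 ± 0.06 in Dox that did not pass the test (adjusted p = 0.438 and 0.439). In shCDC73 cells MCM4 rose, by 0.15 ± 0.06 in EtOH (adjusted p = 0.037) and 0.25 ± 0.06 in Dox (adjusted p = 0.000578). In Dox all 8 shCDC73 libraries (640 to 709 CPM, median 666) lay above the shNTC libraries at 550, 557, 577 and 560 CPM. The EtOH call was weak and ended without any of several single libraries, with an adjusted p of 0.108 without replicate 4 of EtOH shNTC. The reads of MCM2 are uncertain in part, because 23.6% of its exonic length lies opposite other annotated genes and the strand setting of the counting is not given in the sources used here.

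**Figure D2:**
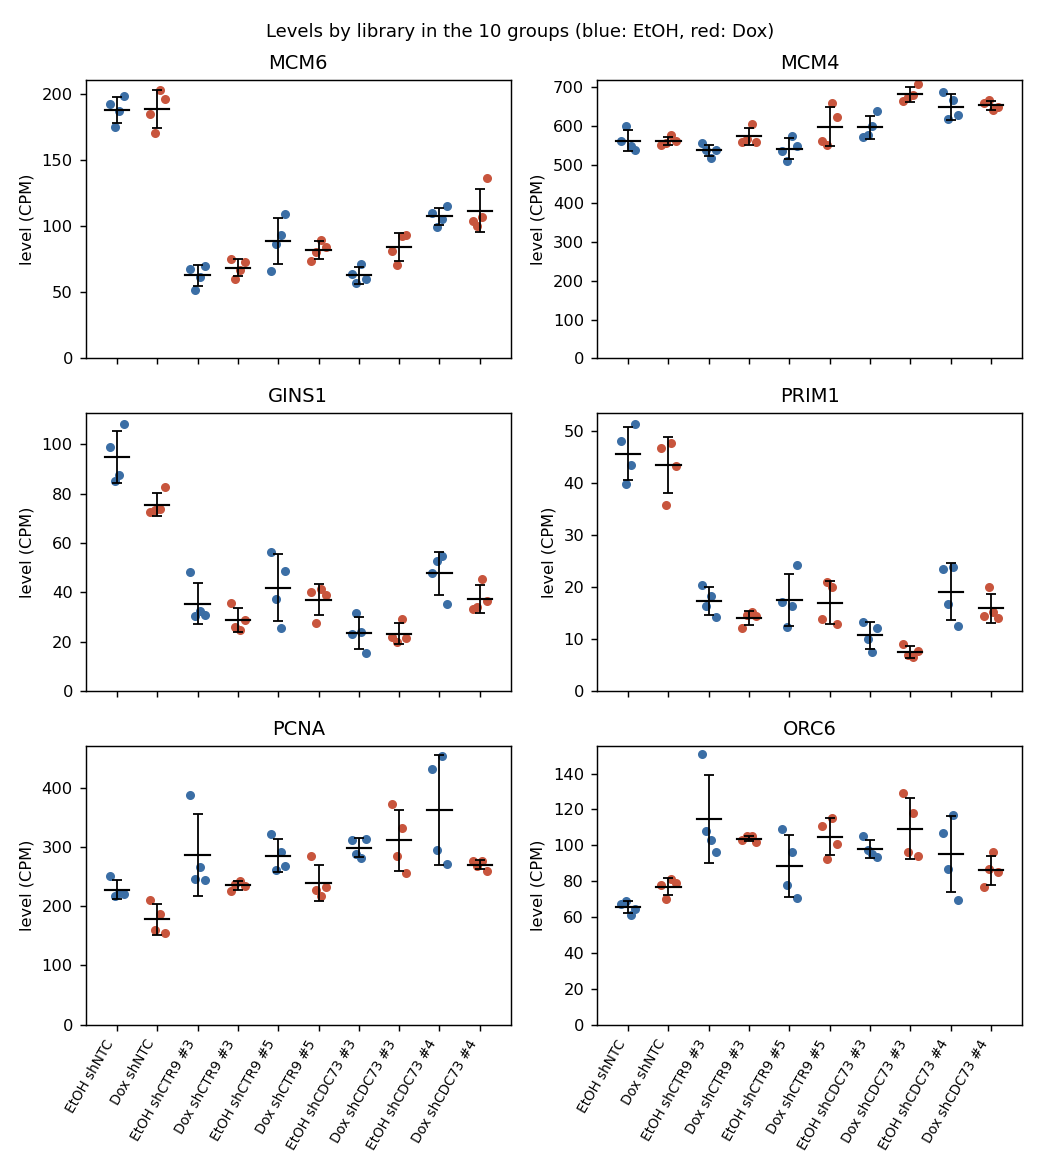
Level (CPM, y axis) of MCM6, MCM4, GINS1, PRIM1, PCNA and ORC6 in each library, by hairpin and treatment (EtOH blue, Dox red), with points for libraries and black bars for the mean ± SD (n = 4). MCM6, GINS1 and PRIM1 lie below their shNTC controls in every knockdown library, while MCM4 stays between 510 and 709 CPM throughout.

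The origin recognition complex, which marks origins and recruits the loaders, moved in both directions. ORC5 had 54.0, 49.8, 52.6 and 52 CPM in EtOH shNTC, 23.5 to 33.0 (median 28.5) in shCTR9 and 20.2 to 37.3 (median 28.5) in shCDC73 libraries. In Dox it had 53.2, 53.7, 52.2 and 59.0 CPM in shNTC, 15.6 to 30.0 (median 25.0) in shCTR9 and 9.52 to 36.3 (median 28.2) in shCDC73 libraries. No knockdown library reached a control, and ORC5 fell by -0.86 ± 0.14 and -1.16 ± 0.15 in shCTR9 and by -0.89 ± 0.14 and -1.09 ± 0.15 in shCDC73 cells in EtOH and Dox (adjusted p = 2.46e-06 and 6.82e-09, then 1.06e-06 and 2.91e-08). ORC6, the small subunit, rose. It had 67.5, 68.9, 61.1 and 64.6 CPM in EtOH shNTC, 70.4 to 151 (median 99.8) in shCTR9 and 69.5 to 117 (median 96.3) in shCDC73 libraries. The lowest knockdown libraries lay just above the highest control, and the log2 fold changes were 0.62 ± 0.12 and 0.55 ± 0.12 in EtOH and 0.43 ± 0.12 and 0.33 ± 0.12 in Dox. The Dox call in shCDC73 cells ended without replicate 2 of Dox shNTC (adjusted p = 0.0756) or replicate 1 of Dox shCDC73 hairpin 3 (0.0595).

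ORC4 had 39.7, 32.2, 34.2 and 31.0 CPM in EtOH shNTC, 41.9 to 61.7 (median 52.5) in shCTR9 and 37.5 to 46.5 (median 44.6) in shCDC73 libraries. It rose with shCTR9 in EtOH and Dox (0.61 ± 0.11 and 0.57 ± 0.11, adjusted p = 1.34e-05 and 4.19e-05). With shCDC73 it rose by 0.33 ± 0.11 in EtOH, a call that ended without replicate 2 or 4 of EtOH shNTC (adjusted p = 0.0568 and 0.0595), and the Dox value of 0.15 ± 0.11 did not pass the test. ORC3 fell in shCDC73 cells in EtOH and Dox (-0.96 ± 0.17 and -0.78 ± 0.17) and in Dox shCTR9 cells (-0.62 ± 0.17), with -0.36 ± 0.16 (adjusted p = 0.0621) in EtOH shCTR9 cells. ORC1 fell in EtOH shCDC73 cells by -0.40 ± 0.11. ORC2 fell in EtOH shCDC73 cells by -0.54 ± 0.12 and in Dox by -0.33 ± 0.13, the last ending without replicate 2 of Dox shNTC (adjusted p = 0.0936).

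Of the loading factors and their inhibitor, CDC6, the ATPase that loads MCM2-7, was not called in any knockdown comparison. It had 164, 146, 168 and 169 CPM in EtOH shNTC, 118 to 161 (median 140) in shCTR9 and 131 to 184 (median 158) in shCDC73 libraries, which overlapped the controls in both cases (-0.19 ± 0.08, adjusted p = 0.0667, and -0.05 ± 0.08). CDT1, its partner, fell in shCTR9 cells by -0.31 ± 0.11 in EtOH and -0.42 ± 0.12 in Dox. The EtOH call ended without replicate 2 of EtOH shNTC (adjusted p = 0.172). GMNN encodes geminin, the inhibitor of CDT1. It rose in shCDC73 cells by 0.46 ± 0.17 in EtOH and 0.60 ± 0.18 in Dox, and in Dox shCTR9 cells by 0.47 ± 0.18, with 0.39 ± 0.17 (adjusted p = 0.0566) in EtOH shCTR9 cells. The EtOH shCDC73 call ended without the 3 libraries rich in short transcripts (adjusted p = 0.123), and the Dox shCTR9 call without replicate 2 of Dox shNTC (0.149).

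Among the helicase activators, GINS1 and GINS3 went opposite ways although both encode subunits of the 4-protein GINS complex. GINS1 had 98.8, 85.0, 87.4 and 108 CPM in EtOH shNTC, 25.6 to 56.2 (median 35.1) in shCTR9 and 15.6 to 54.9 (median 33.5) in shCDC73 libraries. In Dox it had 72.6, 73.2, 73.7 and 82.6 CPM in shNTC, 24.7 to 41.3 (median 32.3) in shCTR9 and 19.9 to 45.6 (median 31.3) in shCDC73 libraries. All knockdown libraries lay below the controls. The log2 fold changes were -1.28 ± 0.14 and -1.21 ± 0.15 with shCTR9 and -1.49 ± 0.14 and -1.37 ± 0.15 with shCDC73 in EtOH and Dox (adjusted p = 1.02e-10, 2.91e-09, 1.61e-12 and 1.64e-10). GINS3 had 64.2, 50.5, 55.2 and 57.0 CPM in EtOH shNTC, 54.2 to 88.0 (median 70.8) in shCTR9 and 51.2 to 96.3 (median 68.0) in shCDC73 libraries. The groups overlapped, and GINS3 rose by 0.31 ± 0.11 and 0.32 ± 0.11 in EtOH and by 0.28 ± 0.10 and 0.27 ± 0.10 in Dox.

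The 4 GINS3 calls each rested on single control libraries. Without replicate 2 of EtOH shNTC the adjusted p was 0.0871 for shCTR9 and 0.0626 for shCDC73, and without replicate 4 of Dox shNTC it was 0.193 and 0.186. GINS2 fell in shCTR9 cells by -0.50 ± 0.19 in EtOH and -0.76 ± 0.21 in Dox, the first of which ended without replicate 1 of EtOH shNTC (adjusted p = 0.0843). CDC45, which bridges MCM2-7 and GINS, fell in shCTR9 cells by -0.45 ± 0.10 and -0.33 ± 0.10 and in Dox shCDC73 cells by -0.33 ± 0.10. MCM10, a helicase activator that is not part of the ring, had 135, 157, 179 and 170 CPM in EtOH shNTC, 118 to 167 (median 147) in shCTR9 and 90.2 to 147 (median 114) in shCDC73 libraries. It fell in shCDC73 cells by -0.46 ± 0.09 in EtOH and -0.28 ± 0.09 in Dox, though the groups overlapped, and the Dox call ended without replicate 2 of Dox shNTC (adjusted p = 0.0794). GINS4 passed the test in none of these 4 comparisons, with log2 fold changes from -0.18 ± 0.28 to 0.10 ± 0.28 at its low level, and 23.6% of its exonic length lies opposite other annotated genes.

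Polymerase alpha-primase, which starts every new strand, had the lowest median log2 fold change of the roles in EtOH, -0.96 over its 4 genes in shCTR9 and -0.78 in shCDC73 cells. PRIM1, the catalytic primase subunit, had 48.1, 39.8, 43.4 and 51.2 CPM in EtOH shNTC, 12.3 to 24.3 (median 16.8) in shCTR9 and 7.49 to 23.8 (median 13.0) in shCDC73 libraries. In Dox it had 46.7, 35.8, 47.6 and 43.3 CPM in shNTC, 12.2 to 21.0 (median 14.5) in shCTR9 and 6.53 to 20.1 (median 11.6) in shCDC73 libraries. Every knockdown library lay below every control, with log2 fold changes of -1.39 ± 0.15 and -1.48 ± 0.16 for shCTR9 and -1.68 ± 0.16 and -1.95 ± 0.17 for shCDC73 (adjusted p = 2.1e-10, 9.97e-11, 1.54e-12 and 1.87e-13). POLA2, the accessory subunit of polymerase alpha, had 50.6, 57.4, 57.8 and 51.2 CPM in EtOH shNTC, 15.3 to 35.2 (median 23.6) in shCTR9 and 23.4 to 44.2 (median 38.4) in shCDC73 libraries. Both knockdowns lay below the controls, by -1.19 ± 0.14 and -0.62 ± 0.13 in EtOH, and by -0.75 ± 0.15 and -0.56 ± 0.14 in Dox. POLA1, the catalytic subunit, fell by -0.72 ± 0.15 and -0.94 ± 0.15 in EtOH and by -0.51 ± 0.16 in both knockdowns in Dox. Its mean in Dox shCDC73 cells was 56.3% of the shNTC mean with hairpin 3 and 88.6% with hairpin 4. PRIM2, the regulatory primase subunit, fell with shCDC73 (-0.53 ± 0.13 in EtOH, -0.44 ± 0.14 in Dox) and was not called with shCTR9 (-0.20 ± 0.12 and -0.22 ± 0.13). Exons of other annotated genes cover 35.1% of the exonic length of POLA2 and 21.6% of that of PRIM1, so a part of their reads could belong to those genes.

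Of the 6 genes of polymerases delta and epsilon, POLE2 moved most. POLE2, a noncatalytic subunit of the leading-strand polymerase, fell by -1.18 ± 0.16 and -1.17 ± 0.16 in EtOH and by -0.96 ± 0.16 and -1.17 ± 0.17 in Dox, for shCTR9 and shCDC73 in that order. The catalytic subunit POLE did not pass the test in any of these, with log2 fold changes between -0.14 ± 0.10 and 0.00 ± 0.09, nor did POLE3, a histone-fold subunit. POLD1, the catalytic subunit of polymerase delta, fell in EtOH (-0.47 ± 0.12 and -0.35 ± 0.12) and in Dox shCDC73 cells (-0.37 ± 0.12), the last ending without replicate 2 of Dox shNTC (adjusted p = 0.0965). POLD3, an accessory subunit, fell in EtOH (-0.62 ± 0.13 and -0.61 ± 0.13) and in Dox shCTR9 cells (-0.37 ± 0.13), the last ending without replicate 3 of Dox shNTC (adjusted p = 0.0603). POLD2 values lay between -0.23 ± 0.10 and -0.11 ± 0.10 and were not called.

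PCNA, the sliding clamp, rose in both knockdowns. It had 252, 217, 223 and 221 CPM in EtOH shNTC, 244 to 389 (median 267) in shCTR9 and 271 to 454 (median 304) in shCDC73 libraries. In Dox it had 211, 160, 187 and 155 CPM in shNTC, 217 to 285 (median 234) in shCTR9 and 257 to 373 (median 276) in shCDC73 libraries. Apart from EtOH shCTR9, whose range touched the highest control, the knockdown libraries lay above the controls. The log2 fold changes were 0.32 ± 0.12 and 0.53 ± 0.12 in EtOH (adjusted p = 0.0229 and 0.000291) and 0.41 ± 0.12 and 0.70 ± 0.12 in Dox (adjusted p = 0.00549 and 8.36e-06). The EtOH shCTR9 call ended without replicate 1 of EtOH shCTR9 hairpin 3 (adjusted p = 0.0801), a library rich in short transcripts, without replicate 1 of hairpin 5 (0.0607), or without replicate 2, 3 or 4 of EtOH shNTC (0.0682, 0.0614 and 0.0636).

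The clamp loader genes, whose products open PCNA and place it on DNA, were mixed. RFC2 fell in all 4 comparisons (-0.63 ± 0.14 and -0.55 ± 0.14 in EtOH, -0.69 ± 0.15 and -0.60 ± 0.15 in Dox). RFC4 fell in EtOH (-0.69 ± 0.14 and -0.70 ± 0.14) and in Dox shCDC73 cells (-0.46 ± 0.15, adjusted p = 0.0694 without replicate 3 of Dox shNTC). RFC5 had 81.0, 79.6, 76.9 and 81.4 CPM in EtOH shNTC, 81.7 to 101 (median 88.2) in shCTR9 and 72.0 to 95.3 (median 83.9) in shCDC73 libraries, and was not called in EtOH (0.20 ± 0.10 and 0.08 ± 0.10). In Dox it rose by 0.43 ± 0.10 and 0.31 ± 0.10, as the 4 shNTC libraries then stood at 53.2, 63.5, 60.6 and 63.8 CPM. The Dox call in shCDC73 cells ended without replicate 1 of Dox shNTC (adjusted p = 0.069). RFC3 had 121, 108, 120 and 94.8 CPM in EtOH shNTC, 103 to 146 (median 128) in shCTR9 and 101 to 148 (median 131) in shCDC73 libraries, all overlapping. It rose in EtOH shCTR9 cells (0.23 ± 0.09, adjusted p = 0.0361), a call that ended without replicate 4 of EtOH shNTC (0.209), among others. DSCC1, of an alternative clamp loader, fell in Dox (-0.61 ± 0.12 and -0.38 ± 0.12), and RFC1, the large subunit, was not called, between -0.13 ± 0.08 and 0.02 ± 0.08.

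All 3 subunits of the single-strand binding protein RPA fell in all 4 comparisons. RPA2 had 91.2, 86.5, 76.9 and 90.6 CPM in EtOH shNTC, 49.7 to 68.4 (median 62.4) in shCTR9 and 28.6 to 59.8 (median 45.8) in shCDC73 libraries. In Dox it had 89.9, 97.7, 96.1 and 97.6 CPM in shNTC, 47.0 to 67.3 (median 57.5) in shCTR9 and 39.8 to 59.9 (median 54.9) in shCDC73 libraries. No knockdown library reached a control, and RPA2 fell by -0.49 ± 0.11 and -0.93 ± 0.11 in EtOH and by -0.75 ± 0.11 and -0.85 ± 0.11 in Dox (adjusted p = 0.000217, 1.16e-09, 1.33e-07 and 7.51e-09). RPA1, the large subunit, had 197, 182, 193 and 213 CPM in EtOH shNTC, 145 to 183 (median 173) in shCTR9 and 120 to 199 (median 157) in shCDC73 libraries. Its ranges overlapped those of the controls in EtOH and, with shCDC73, in Dox (113 to 170 against 168 to 206 CPM). RPA1 had falls of -0.20 ± 0.07 and -0.33 ± 0.07 in EtOH and -0.42 ± 0.07 and -0.47 ± 0.08 in Dox. In EtOH shCDC73 cells its mean was 67.9% of the shNTC mean with hairpin 3 and 93.9% with hairpin 4. The EtOH shCTR9 call of RPA1 ended without replicate 4 of EtOH shNTC (adjusted p = 0.105) or replicate 2 of EtOH shCTR9 hairpin 3 (0.0606). RPA3, the small subunit, fell by -0.73 ± 0.22 in both knockdowns in EtOH and by -0.91 ± 0.24 and -0.66 ± 0.24 in Dox, the last ending without replicate 1 of Dox shNTC (adjusted p = 0.102). In EtOH its ranges overlapped the controls (43.4 to 54.0 CPM), with 17.4 to 49.1 CPM in shCTR9 and 11.7 to 63.2 CPM in shCDC73 libraries. The top EtOH shCDC73 library thus lay above every control. In EtOH shCDC73 cells the RPA3 mean was 92.8% of the shNTC mean with hairpin 4 and lower with hairpin 3.

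Of the Okazaki fragment enzymes, DNA2, a nuclease and helicase, fell in EtOH (-0.42 ± 0.14 and -0.46 ± 0.14), with 0.08 ± 0.15 and 0.11 ± 0.15 in Dox. LIG1, the ligase that seals the fragments, was not called, with log2 fold changes from -0.31 ± 0.14 to 0.01 ± 0.14. Of the chromatin assembly genes, CHAF1B, a subunit of the histone chaperone CAF-1, had 32.9, 30.6, 26.3 and 36.9 CPM in EtOH shNTC, 10.4 to 23.5 (median 17.5) in shCTR9 and 17.3 to 28.1 (median 24.4) in shCDC73 libraries. The shCTR9 libraries lay below the controls and those of shCDC73 overlapped them. CHAF1B fell by -0.97 ± 0.15 and -0.41 ± 0.14 in EtOH and by -1.03 ± 0.16 and -0.40 ± 0.15 in Dox. The shCDC73 calls ended without replicate 4 of EtOH shNTC (adjusted p = 0.101) and replicate 3 of Dox shNTC (0.086, among others). CHAF1A, the large CAF-1 subunit, was not called, between -0.20 ± 0.10 and -0.04 ± 0.10.

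Of the 4 fork protection genes 3 fell in EtOH shCTR9 cells and 4 in EtOH shCDC73 cells, with 2 and 3 in Dox. WDHD1, which ties polymerase alpha to the helicase, had 68.4, 70.5, 67.7 and 64.6 CPM in EtOH shNTC, 29.5 to 50 (median 41.7) in shCTR9 and 21.7 to 49.4 (median 38.4) in shCDC73 libraries. All 16 lay below the controls, by -0.73 ± 0.12 and -0.89 ± 0.12, and in Dox WDHD1 fell by -0.65 ± 0.14 and -0.59 ± 0.14. The Dox shCDC73 libraries overlapped the controls for WDHD1 (15.6 to 44.9 against 40.1 to 48.8 CPM). Their mean was 48.9% of the Dox shNTC mean with hairpin 3 and 90.0% with hairpin 4. CLSPN, the claspin gene of the replication checkpoint, had 181, 186, 157 and 165 CPM in EtOH shNTC, 108 to 198 (median 130) in shCTR9 and 114 to 210 (median 130) in shCDC73 libraries. The groups overlapped, the falls were -0.36 ± 0.11 and -0.27 ± 0.11, and the second ended without replicate 2 of EtOH shNTC (adjusted p = 0.099). In Dox CLSPN was not called (-0.22 ± 0.11 and -0.06 ± 0.11). TIMELESS and TIPIN encode partners in the fork protection complex. TIMELESS fell in shCDC73 cells by -0.71 ± 0.13 in EtOH and -0.40 ± 0.14 in Dox and in EtOH shCTR9 cells by -0.32 ± 0.13, where the call ended without replicate 3 of EtOH shNTC (adjusted p = 0.129). The Dox call ended without replicate 4 of Dox shNTC (0.0879). TIPIN fell in shCDC73 cells by -0.49 ± 0.15 and -0.55 ± 0.14 and in Dox shCTR9 cells by -0.68 ± 0.14. The Dox shCDC73 call of TIPIN ended without replicate 1 of Dox shNTC (adjusted p = 0.0515). Its reads are uncertain in part, because 21.0% of its exonic length lies over another annotated gene on the same strand.

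**Figure D3:**
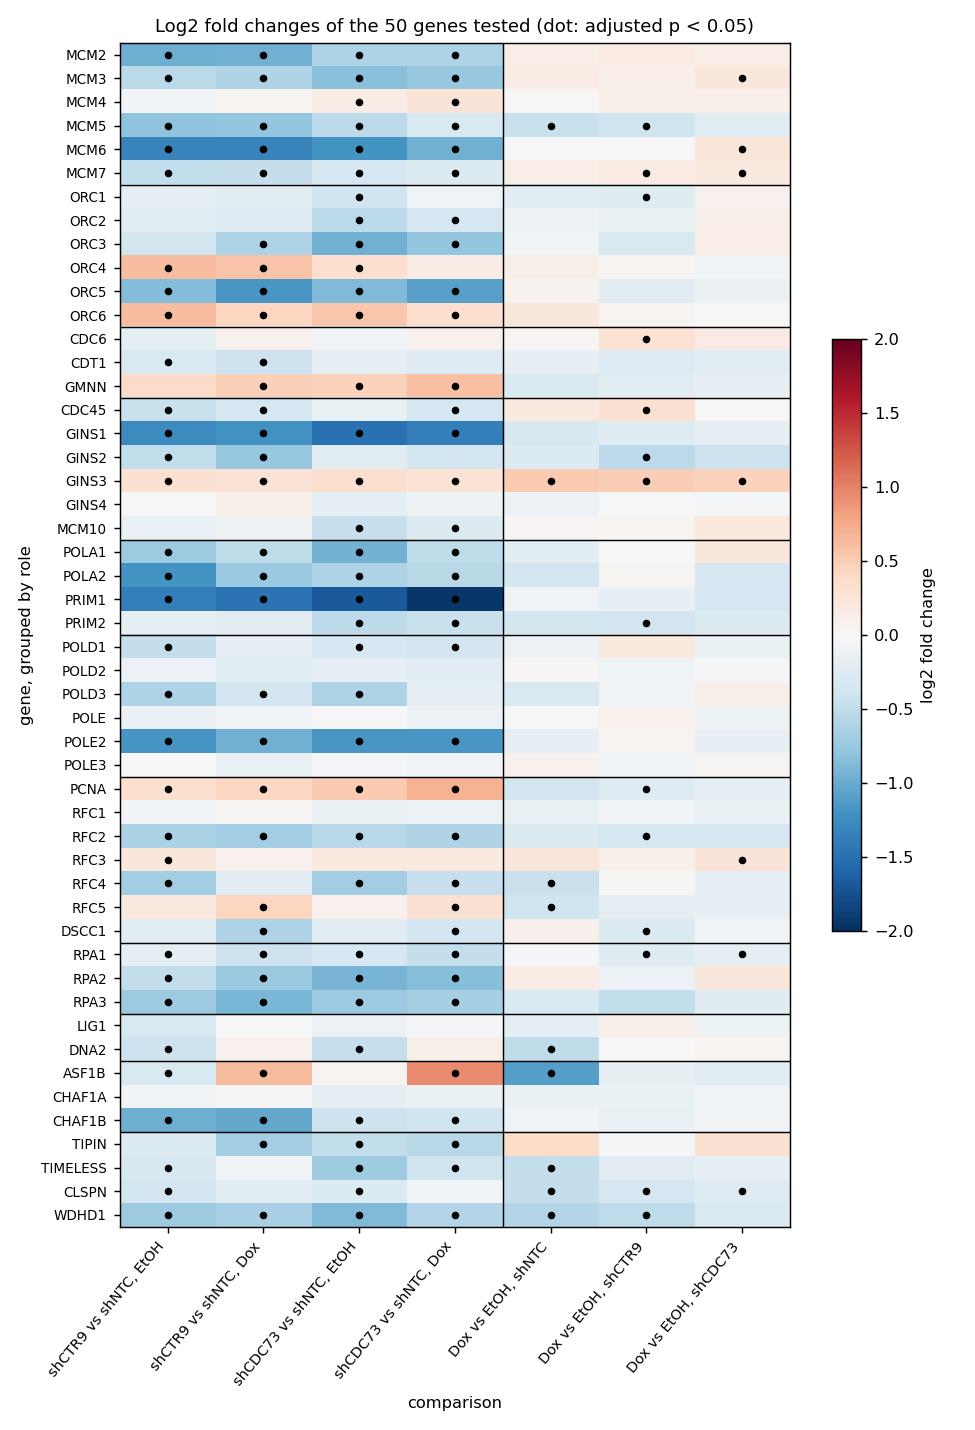
Log2 fold changes of the 50 tested members (y axis, grouped by role) against shNTC in the 4 knockdown comparisons and for Dox against EtOH in each hairpin background (x axis), where colour gives the log2 fold change and a black dot an adjusted p under 0.05. More members fell than rose in each knockdown column, and the Dox columns hold fewer dots than the knockdown columns.

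The treatments use different libraries on both sides, so their calls can be set against each other. In shCTR9 cells 27 members fell in EtOH and 24 in Dox, and 21 fell in both, 77.8% and 87.5% of the 2 lists. In shCDC73 cells 29 and 27 fell and 25 fell in both, 86.2% and 92.6%. The members that rose were 5 and 7 in shCTR9 cells with 4 in both (80.0% and 57.1%), and 6 and 7 in shCDC73 cells with 5 in both (83.3% and 71.4%). ASF1B in shCTR9 cells was the sole member called in opposite directions in EtOH and Dox. The sharing of calls between the treatments was not counted over all genes, so it is not read as particular to the members.

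Each knockdown was also read from its hairpins one at a time. No member passed the test between the 2 CTR9 hairpins (0 of 50 in EtOH and in Dox). Of all genes 0.175% were higher and 0.414% lower with hairpin 5 in EtOH, and 0.0876% and 0.191% in Dox. At an unadjusted p under 0.05 there were 10 members in EtOH and 4 in Dox. All genes were not counted at that threshold, so these 2 counts have no background and are not read as a difference. Without the 3 libraries rich in short transcripts MCM6 was higher with hairpin 5 in EtOH (0.55, adjusted p = 0.029), as the sole member, where 0.245% of all genes were higher and 0.498% lower. More members passed the test between the 2 CDC73 hairpins. In EtOH 24 of 50 members were higher and 2 lower with hairpin 4 than with hairpin 3, where 16.4% of all genes were higher and 14.8% lower. In Dox 12 were higher and 2 lower, where 5.86% and 7.1% of all genes were.

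The median log2 difference of the members between the CDC73 hairpins was 0.37 in EtOH and 0.21 in Dox, against 0.01 and 0.00 over all genes. Without the 3 libraries rich in short transcripts, 2 of which are hairpin 4 libraries in EtOH, 15 members were higher and 1 lower in EtOH (9.63% and 9.55% of all genes), and 14 and 3 in Dox (8.88% and 9.41%). The level of the target was measured beside these differences, with CDC73 at 8.03 ± 1.44 CPM (SD, n = 4) for hairpin 3 and 8.20 ± 2.67 for hairpin 4 in EtOH, and 6.58 ± 2.56 and 9.57 ± 4.24 in Dox (22.6% and 23.0%, then 22.3% and 32.4%, of the shNTC mean). GINS1 differed by 1.00 ± 0.20 in EtOH and 0.68 ± 0.21 in Dox, and PRIM1 by 0.81 ± 0.24 and 1.06 ± 0.27. MCM6 differed by 0.77 ± 0.12 and 0.41 ± 0.12, MCM2 by 0.65 ± 0.10 and 0.36 ± 0.10, and MCM7 by 0.52 ± 0.08 and 0.32 ± 0.08. MCM4 did not pass (0.12 ± 0.07, adjusted p = 0.171, and -0.06 ± 0.07). The members lower with hairpin 4 were GINS3 and POLE in EtOH (-0.35 ± 0.12 and -0.30 ± 0.11) and GINS3 and ASF1B in Dox (-0.40 ± 0.12 and -0.64 ± 0.15).

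**Figure D4:**
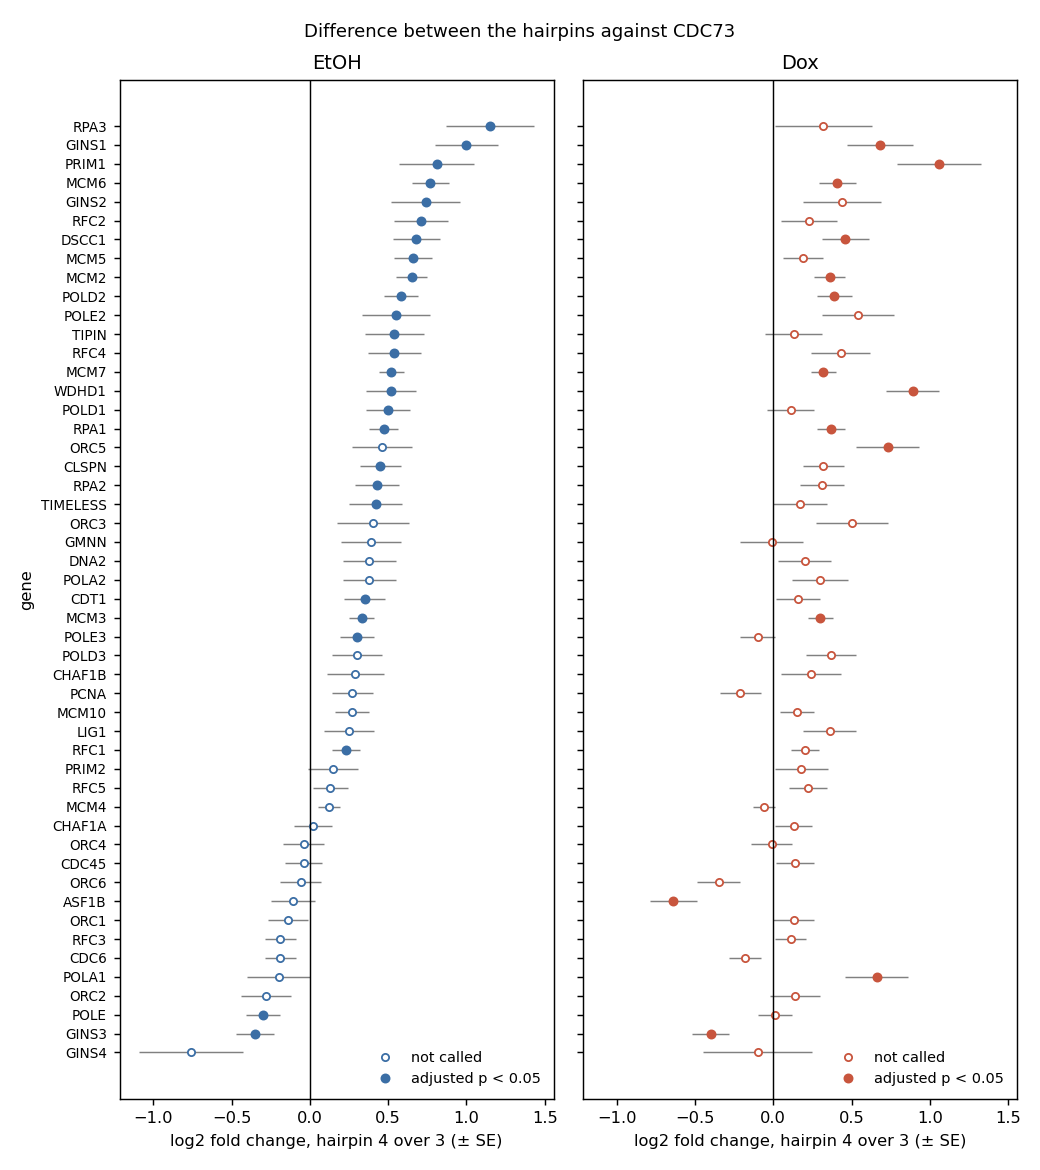
Log2 difference between CDC73 hairpin 4 and hairpin 3 for the 50 tested members (y axis: members, x axis: log2 difference), in EtOH (blue) and Dox (red), where bars are SE and filled points passed an adjusted p of 0.05. Most points lie right of 0, with medians of 0.37 and 0.21, and GINS3, POLE and ASF1B are the filled points left of it.

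Each hairpin on its own still lowered more members than it raised. Hairpin 3 against CTR9 lowered 26 and raised 5 in EtOH (20.9% and 22.8% of all genes) and lowered 25 and raised 6 in Dox (18.8% and 19.9%). Hairpin 5 lowered 23 and raised 2 in EtOH (17.2% and 17.7% of all genes) and lowered 21 and raised 6 in Dox (15.3% and 15.7%). Hairpin 3 against CDC73 lowered 34 and raised 5 in EtOH (25.5% and 26.0% of all genes) and lowered 30 and raised 6 in Dox (23.5% and 23.7%). Hairpin 4 lowered 19 and raised 4 in EtOH (18.5% and 19.7% of all genes) and lowered 12 and raised 6 in Dox, where 14.8% of all genes fell and 14.5% rose.

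The 2 knockdowns were then set against each other directly. In EtOH 8 members were higher and 8 lower in shCDC73 than in shCTR9 cells (16.0% each), where 6.59% of all genes were higher and 8.34% lower. MCM2 was higher by 0.36 ± 0.07 (adjusted p = 0.000263), POLA2 by 0.58 ± 0.13 (0.00113) and MCM4 by 0.21 ± 0.05 (0.00246). MCM3 was lower by a log2 difference of -0.29 ± 0.05 (adjusted p = 0.000156), RPA2 by -0.44 ± 0.10 (0.00125) and MCM10 by -0.33 ± 0.08 (0.0021). The 8 libraries of each knockdown overlapped for all 6 genes. The direction for MCM2 was reversed between CDC73 hairpin 3 and CTR9 hairpin 5 (-0.10).

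In Dox 7 members were higher and 2 lower in shCDC73 than in shCTR9 cells (14.0% and 4.0%), where 4.65% of all genes were higher and 5.69% lower. CHAF1B was higher by 0.64 ± 0.14 (adjusted p = 0.00242), MCM5 by 0.47 ± 0.09 (0.000574), MCM6 by 0.37 ± 0.09 (0.00346), MCM2 by 0.35 ± 0.07 (0.000665) and MCM4 by 0.19 ± 0.05 (0.00707). MCM2 in Dox stood at 57.5% of the shNTC mean with CDC73 hairpin 3 and at 74.2% with hairpin 4. With CTR9 hairpins 3 and 5 it stood at 46.9% and 56.3%. For MCM6 the values in that order were 44.7%, 59.3%, 36.3% and 43.3%. ORC4 was lower by -0.42 ± 0.09 (adjusted p = 0.00144), and its libraries did not overlap, with 37.4 to 44.8 CPM in shCDC73 and 48.0 to 62.1 in shCTR9 cells. For the higher genes the libraries of the 2 knockdowns overlapped.

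With Dox in shNTC cells 8 of 50 members fell and 1 rose (16.0% and 2.0%), where 8.93% of all genes fell and 8.49% rose. The share called in the 2 directions together (18.0%) was near the background, while the share that fell was over it and the share that rose under it. Of the 8 tested osteoblast and mesenchymal markers 6 fell with Dox in shNTC cells and none rose, and their part in the falls was not tested. The members that fell were ASF1B, WDHD1, CLSPN, TIMELESS, MCM5, DNA2, RFC4 and RFC5, and GINS3 rose. WDHD1 went from 68.4, 70.5, 67.7 and 64.6 CPM in EtOH to 46.0, 48.8, 40.1 and 44.1 in Dox (-0.59 ± 0.14, adjusted p = 0.00156). MCM5 went from 151, 143, 164 and 137 to 99.2, 126, 111 and 104 CPM (-0.44 ± 0.11, adjusted p = 0.00482), and CLSPN from 181, 186, 157 and 165 to 136, 99.3, 122 and 137 CPM (-0.48 ± 0.12, adjusted p = 0.0046). For these 3 the Dox libraries lay below all EtOH libraries.

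RFC5 fell by -0.40 ± 0.12 with Dox in shNTC cells (81.0, 79.6, 76.9 and 81.4 CPM, then 53.2, 63.5, 60.6 and 63.8), a call that ended without replicate 1 of Dox shNTC (adjusted p = 0.0567). The calls of TIMELESS (-0.47 ± 0.15), DNA2 (-0.51 ± 0.16) and RFC4 (-0.44 ± 0.16) ended in the same way (adjusted p = 0.152, 0.162 and 0.1). GINS3 went from 64.2, 50.5, 55.2 and 57.0 to 82.7, 93.6, 83.0 and 65.3 CPM (0.52 ± 0.12, adjusted p = 0.00205), with all Dox libraries above all EtOH libraries. It also rose with Dox in shCTR9 and shCDC73 cells (0.49 ± 0.09 and 0.46 ± 0.09, adjusted p = 2.39e-05 and 5.94e-05), from 54.2 to 88.0 CPM to 80.4 to 117, and from 51.2 to 96.3 CPM to 79.1 to 121, with overlap.

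In shCTR9 cells Dox lowered 10 members and raised 4 (20% and 8.0%), where 9.05% of all genes fell and 9.29% rose. The strongest beside GINS3 were WDHD1 (-0.51 ± 0.12, adjusted p = 0.000986), MCM5 (-0.40 ± 0.09, 0.00111), CDC6 (0.29 ± 0.07, 0.00165), RPA1 (-0.25 ± 0.06, 0.00238) and CLSPN (-0.34 ± 0.09, 0.00576). CDC6 went from 118 to 161 CPM (median 140) in the 8 EtOH libraries to 161 to 193 CPM (median 169) in the 8 Dox libraries, which meet at one end. CDC45 rose by 0.31 ± 0.09 and PRIM2 fell by -0.38 ± 0.11. The calls of RFC2, ORC1, GINS2, PCNA, DSCC1 and MCM7 each ended without 1 library or another (for PCNA, adjusted p = 0.181 without replicate 1 of EtOH shCTR9 hairpin 3). The count of 14 called members went to 8 without replicate 1 or 2 of Dox shCTR9 hairpin 3 or replicate 4 of Dox hairpin 5, and to 9 without replicate 2 of Dox hairpin 5, replicate 1 of EtOH hairpin 3 or replicate 4 of EtOH hairpin 5.

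In shCDC73 cells Dox raised 5 members and lowered 2 (10% and 4.0%), where 9.29% of all genes rose and 8.24% fell. MCM3 rose by 0.22 ± 0.05 (adjusted p = 0.00272), from 228 to 314 CPM (median 270) in EtOH to 262 to 373 CPM (median 317) in Dox, and RFC3 by 0.25 ± 0.07 (0.0128), from 101 to 148 CPM (median 131) to 134 to 165 CPM (median 151). The groups overlapped for both. MCM7 (0.19 ± 0.06), MCM6 (0.24 ± 0.09), CLSPN (-0.26 ± 0.09) and RPA1 (-0.18 ± 0.06) passed the test, but each call ended without single libraries. For CLSPN and RPA1 the adjusted p was 0.144 and 0.109 without replicate 1 of EtOH shCDC73 hairpin 4, for MCM6 0.163 without replicate 4 of Dox hairpin 4, and for MCM7 0.0752 without replicate 3 of Dox hairpin 3. The count of 7 called members went to 4 without that same EtOH library and to 12 without replicate 1 of EtOH shCTR9 hairpin 3, both rich in short transcripts.

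ASF1B, a histone chaperone that hands histones to CAF-1 at the fork, was the one member whose response to Dox differed between backgrounds. In shNTC cells it had 46.4, 45.9, 44.0 and 52.8 CPM in EtOH and 23.7, 17.9, 29.9 and 17.3 CPM in Dox. The groups did not overlap, and the log2 fold change was -1.10 ± 0.16 (adjusted p = 1.26e-06). In shCTR9 cells it had 33.7 to 45.1 CPM (median 37.3) in EtOH and 25.7 to 39.1 (median 33.8) in Dox, and in shCDC73 cells 41.4 to 58.1 (median 48.4) and 24.6 to 58.8 (median 42.4). These overlapped, and Dox changes of -0.16 ± 0.11 and -0.21 ± 0.10 did not pass the test (adjusted p = 0.335 and 0.16). The difference in response from shNTC was 0.93 ± 0.20 for shCTR9 and 0.88 ± 0.19 for shCDC73 (adjusted p = 0.0103 and 0.0175), both against the same shNTC libraries. That made 1 of 50 members (2.0%) in each, where 0.398% and 0.319% of all genes had a higher response and 0.199% and 0.151% a lower one.

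With shCDC73 the Dox level of ASF1B depended on the hairpin, at 57.5, 58.8, 46.8 and 48.7 CPM with hairpin 3 and 34.9, 37.9, 24.6 and 36.6 CPM with hairpin 4. Against shNTC in Dox, ASF1B rose by 0.63 ± 0.15 with shCTR9 and 0.95 ± 0.15 with shCDC73. In EtOH it fell by -0.31 ± 0.13 with shCTR9 (adjusted p = 0.0422) and was not called with shCDC73 (0.06 ± 0.12). The EtOH shCTR9 call ended without replicate 4 of EtOH shNTC (adjusted p = 0.137) and without the 3 libraries rich in short transcripts (0.0571). The shCTR9 response call ended without replicate 4 of Dox shNTC (adjusted p = 0.0595), and the shCDC73 response call without replicate 2 or 4 of Dox shNTC or replicate 4 of EtOH shNTC (0.0873, 0.0732 and 0.0753). MYC itself rose less in the knockdowns, as given above, and its part in this difference was not tested.

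**Figure D5:**
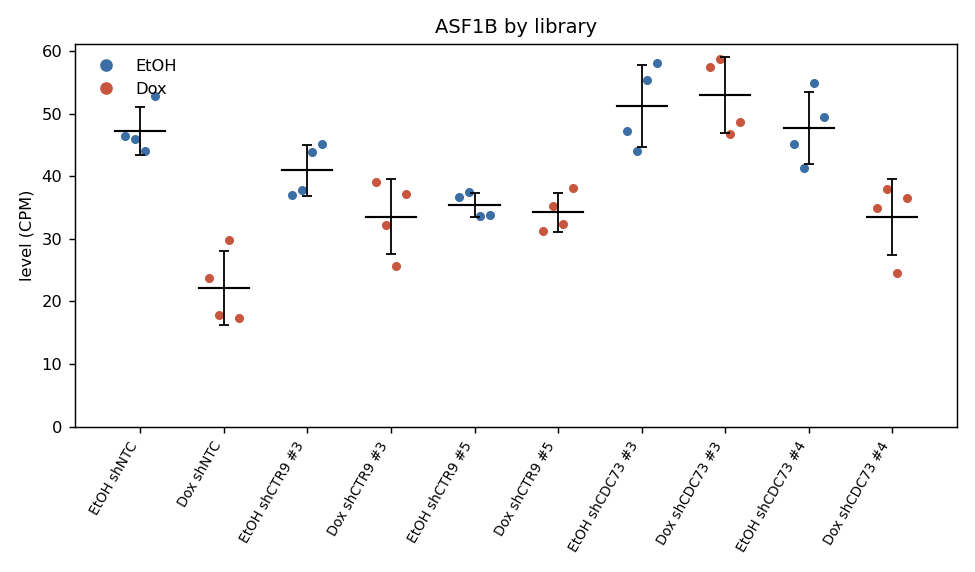
Level of ASF1B (CPM, y axis) in each library, by hairpin and treatment (EtOH blue, Dox red), with points for libraries and black bars for the mean ± SD (n = 4). Dox shNTC libraries lie at 17.3 to 29.9 CPM, below the EtOH shNTC libraries at 44.0 to 52.8 CPM.

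A second list of 52 replication genes outside the members (origin firing kinase, checkpoint, other clamp loaders, histone chaperones and related genes, 49 tested) was read for comparison. In EtOH 18 fell and 14 rose in shCTR9 cells (22.4% and 23.2% of all genes), with a median log2 fold change of -0.13. In EtOH shCDC73 cells 18 fell and 13 rose (24.6% and 24.4% of all genes), with a median of -0.03. In Dox 11 fell and 16 rose in shCTR9 cells (20.6% and 21.1% of all genes), and 12 fell and 17 rose in shCDC73 cells (22.7% and 22.2%). The falls thus made a smaller share of this list than of the members, a difference that was not tested. Both lists were chosen with earlier results of these data known, so this is no independent check. SKP2, the ubiquitin ligase subunit that targets the CDKN1B protein for destruction, fell by -0.94 ± 0.09 and -0.77 ± 0.09 in EtOH, and CDC7, the kinase that fires origins, by -1.11 ± 0.13 in EtOH shCDC73 cells. RAD9A, of the checkpoint clamp, rose by 1.28 ± 0.13 and 1.27 ± 0.13 in EtOH, LRWD1, an ORC partner, by 0.78 ± 0.12 and 1.11 ± 0.11, and the translesion polymerase gene POLH by 1.04 ± 0.12 in shCTR9 cells. In Dox SUPT16H, of the FACT histone chaperone, fell by -0.68 ± 0.10 and -0.92 ± 0.10. With Dox in shNTC cells 2 of these genes fell and 2 rose, where 8.93% of all genes fell and 8.49% rose. They were led by PCLAF, the PCNA clamp associated factor (-0.67 ± 0.16), and CUL4A, a ubiquitin ligase scaffold (0.33 ± 0.08). CDC25A, the phosphatase that activates cyclin-dependent kinases, rose with Dox in all 3 backgrounds (0.38 ± 0.11, 0.30 ± 0.08 and 0.60 ± 0.08).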

How the data were processed

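RNA from 40 U2OS libraries was sequenced by the authors, who deposited 1 table of counts per library, whole-number reads per Ensembl gene. Per the submitters' processing notes, Bowtie, HISAT2 and edgeR were used with hg19. Their roles and versions, strand setting, counter and annotation release: not given in the sources used here. Each table has 63545 entries, of which 393 LRG entries hold no reads and were left out; 0 columns of other samples were present. Gene symbols and exonic lengths came from GENCODE 29, and promoter sequences from RefSeq (GRCh38.p14), so no coordinate of the counting was used.

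Genes were kept by filterByExpr by group (12557 genes, 98.65% of reads), scaled by TMM (factors 0.9226 to 1.0292) and fitted in edgeR 4.0.16 (R 4.3.3) with 1 mean per group over 40 libraries and robust quasi-likelihood F tests, 30 residual degrees of freedom and a biological coefficient of variation of 11.36%. A hairpin pair was averaged. P-values were adjusted by Benjamini-Hochberg over all genes tested. The SE of a log2 fold change was taken as its size over the root of its F value. CPM are reads per 1000000 reads of the TMM-scaled library. At these depths 1 read is about 1 CPM, so genes at a few CPM carry large counting error. The fit was checked on simulated counts.

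Alternatives were DESeq2 1.42.0, RLE scaling, no filter on low counts, a fit of the compared groups only, the replicate number as a block, each replicate number or single library left out, each hairpin alone, and, added after seeing the data, the fits without the 3 libraries rich in short transcripts and the comparisons of hairpins in those fits. The members, the other gene lists and the roles were chosen with earlier results of these data known. Genes given in full were, per comparison, up to 6 called members with the smallest p and a mean of at least 10 CPM, 22 in all. PCNA and ORC6 were given in the same detail after their values were seen. Members called in both knockdowns of a treatment were named with log2 fold change and SE. Of the second replication list up to 4 called genes per comparison could be named.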

Additional observations from a re-analysis of the deposited data

Results flagged for a closer look

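In 220 groups of 4 libraries (22 members given in full, 10 groups each), 1 library stood apart from the other 3 by Dixon's test at 95% in 13 cases, and chance alone gives about 1 in 20 groups. In replicate 1 of EtOH shCTR9 hairpin 3, a library rich in short transcripts, CDC6 stood at 118 CPM (the others 155 to 161), GINS1 at 48.1 (30.4 to 32.7), CLSPN at 198 (130 to 139) and WDHD1 at 50 (40.7 to 41.9). Replicate 3 of the same group had MCM2 at 164 CPM (136 to 138). MCM5 stood at 77.0 CPM in replicate 3 of Dox shCTR9 hairpin 3 (53.1 to 55.4), ORC5 at 15.6 in replicate 3 of Dox shCTR9 hairpin 5 (29.2 to 30.0) and RFC3 at 112 in replicate 2 of the latter group (136 to 141). ORC4 stood at 37.5 CPM in replicate 1 of EtOH shCDC73 hairpin 3 (45.7 to 46.0). In Dox shCDC73 hairpin 3, RFC5 stood at 90.4 CPM in replicate 3 (61.6 to 64.9) and WDHD1 at 15.6 in replicate 4 (23.8 to 24.2), and RPA2 stood at 55.3 in replicate 1 of Dox shCDC73 hairpin 4 (59.5 to 59.9). GINS1 stood at 82.6 CPM in replicate 4 of Dox shNTC (72.6 to 73.7).

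The response of ASF1B to Dox differed between backgrounds by a test of the difference itself, 0.93 on the log2 scale for shCTR9 against shNTC and 0.88 for shCDC73 against shNTC.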

How the results depend on the processing

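All counts here are members called in either direction. In the knockdown comparisons leaving out 1 replicate number gave 24 to 31 for shCTR9 in EtOH, 30 to 34 for shCDC73 in EtOH, 28 to 31 for shCTR9 in Dox and 25 to 32 for shCDC73 in Dox (1 library: 27 to 33, 31 to 36, 28 to 32 and 27 to 37). With hairpin 4 alone shCDC73 gave 23 in EtOH (20 without the 3 libraries rich in short transcripts) and 18 in Dox (21 without them).

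For Dox in shNTC cells the 9 calls were 14 in a fit of the compared groups only and 4 to 7 without 1 replicate number (6 to 10 without 1 library). For Dox in shCTR9 cells the 14 calls were 6 with hairpin 3 alone and 2 with hairpin 5 alone (5 and 6 without the 3 libraries), 7 to 11 without 1 replicate number and 8 to 14 without 1 library. For Dox in shCDC73 cells the 7 calls were 3 with hairpin 3 alone, 3 in a fit of the compared groups only, 4 with DESeq2, 3 to 4 without 1 replicate number and 4 to 12 without 1 library.

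The response of ASF1B (1 call in each knockdown) was 0 calls with CTR9 hairpin 3 alone and with CDC73 hairpin 4 alone, with or without the 3 libraries, and for shCDC73 also 0 with no filter on low counts and in a fit of the compared groups only; leaving out libraries gave 0 to 1. For shCDC73 against shCTR9 in EtOH the 16 calls were 9 between CDC73 hairpin 4 and CTR9 hairpin 5, and without the 3 libraries 10 between hairpins 4 and 3 and 4 between hairpins 4 and 5, with 6 to 13 without 1 replicate number and 13 to 16 without 1 library. In Dox the 9 calls were 5 between hairpins 4 and 5, 3 to 7 without 1 replicate number and 6 to 11 without 1 library.

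Some directions were reversed under single hairpins. POLD1 in EtOH shCDC73 cells was 0.01 with hairpin 4 alone without the 3 libraries. For shCDC73 against shCTR9 in EtOH, between hairpins 3 and 5, MCM2 was -0.10 (-0.11 without the 3 libraries), MCM5 -0.11 (-0.12) and MCM7 -0.05 (-0.05). Between hairpins 3 and 3 MCM7 was -0.14 (-0.17) and, without the 3 libraries, MCM5 was -0.01. Without the 3 libraries TIMELESS was 0.05 between hairpins 4 and 3 and 0.02 between hairpins 4 and 5, and PRIM2 was 0.05 between hairpins 4 and 3. In Dox MCM7 was -0.05 between hairpins 3 and 3 (-0.06). The causes of these changes were not tested.

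The replicate numbers were not used to pair the libraries in the main fit. Same-numbered libraries of different groups had a median correlation of deviations of 0.045, against -0.012 for differently numbered ones. The range was -0.138 to 0.518, with 42 of 180 pairs over 0.1. However, 28 of 40 libraries were most like their own number, so same-numbered libraries were not unrelated. With the replicate number as a block the counts were 10, 14 and 10 for Dox in shNTC, shCTR9 and shCDC73 cells, 34 and 35 for shCTR9 and shCDC73 in EtOH, 32 and 35 in Dox, 1 and 1 for the responses, and 17 and 11 between the knockdowns, and all 189 called gene results kept their call. Of those 189, 176 kept theirs with DESeq2, 186 with RLE scaling, 160 with no filter, 172 in a fit of the compared groups only and 175 without the 3 libraries.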

Other observations

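Of 22 tested regulators of the G1 to S transition 11 fell and 6 rose in EtOH shCTR9 cells, where 22.4% of all genes fell and 23.2% rose. In EtOH shCDC73 cells 9 fell and 7 rose, where 24.6% and 24.4% of all genes did. E2F2, an activating E2F factor, fell by -1.97 ± 0.13 (SE) and -1.96 ± 0.13, and CCND2, cyclin D2, by -1.17 ± 0.07 and -0.88 ± 0.07. CDKN1A, the inhibitor of cyclin-dependent kinases known as p21, rose by 0.73 ± 0.07 and 0.91 ± 0.07, and CCNE1, cyclin E1, by 0.62 ± 0.10 and 0.67 ± 0.10. E2F1 fell with shCTR9 by -0.40 ± 0.11 (adjusted p = 0.00336) and was not called with shCDC73 (-0.12 ± 0.11). CCNE2, cyclin E2, responded to Dox differently from shNTC in both knockdowns (1.97 ± 0.45 and 1.86 ± 0.41, adjusted p = 0.0191 and 0.0192). Dox lowered it in shNTC cells (-0.97 ± 0.35, adjusted p = 0.0473) and raised it in shCTR9 (1.00 ± 0.28) and shCDC73 cells (0.89 ± 0.22). Against shNTC, CCNE2 fell in EtOH shCTR9 cells (-1.21 ± 0.31) and was not called in Dox (0.76 ± 0.32, adjusted p = 0.0541). With shCDC73 it was not called in EtOH (-0.34 ± 0.27) and rose in Dox (1.53 ± 0.30).

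Of a list of 34 genes active in G2 or mitosis, 15 fell and 2 rose in EtOH shCTR9 cells (22.4% and 23.2% of all genes). In EtOH shCDC73 cells 16 fell and 3 rose (24.6% and 24.4% of all genes). In Dox 9 fell and 9 rose in shCTR9 cells (20.6% and 21.1% of all genes), and 11 fell and 5 rose in shCDC73 cells (22.7% and 22.2%). With Dox in shNTC cells 22 fell and 0 rose (median log2 fold change -0.36), where 8.93% of all genes fell and 8.49% rose. A change in the share of cells in each phase and a change of RNA per cell cannot be told apart here.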
